A study of Mus musculus with 8 samples.

Results

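Fatty acid, triglyceride and phospholipid synthesis was followed through 40 genes, found by gene name among the 36163 names on the array, in the lungs of mice given lipopolysaccharide (LPS), the bacterial outer-membrane component that injures the lung. Of the 40 genes, 39 had a probe well above background on at least 3 of the 4 arrays of a genotype and were tested among 24464 genes, and 38 were well above background on all 8 arrays. Elovl3, an elongase of very long chain fatty acids, stayed below the well-above-background limit on each of the 8 arrays and has no value here. The samples were whole-lung RNA of 4 wild-type C57BL/6 mice and 4 C57BL/6 mice with a knockout of Ggps1 (GGPPS1 in the labels), all taken 12 h after LPS, with 1 single-colour Agilent array per mouse. The series' design text calls the knockout lung-specific. The sources used here name no promoter or cell type that restricts it, no alleles of the wild-type mice, no LPS dose and no age. Untreated mice were not analysed here, so every value compares the genotypes under LPS.

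Acetyl-CoA made from citrate is carboxylated to malonyl-CoA and built into palmitate by fatty acid synthase, and the transcription factor SREBP-1 (gene Srebf1) drives much of this pathway. Elongases and desaturases then lengthen and unsaturate the chain, acyl-CoA synthetases activate it, and acyltransferases place it on glycerol to make triglyceride or phospholipid. In the lung the pathway has a particular user, since alveolar type 2 cells make surfactant, whose main lipid is phosphatidylcholine. Geranylgeranyl diphosphate synthase, the product of Ggps1, belongs to the neighbouring mevalonate pathway and makes the lipid that anchors many small GTPases in membranes.

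Wild-type samples filled row 1 and knockout samples row 2 of a single slide, so slide row and genotype cannot be told apart, and same-numbered samples shared a slide column. The share of spots well above background ran from 58.1% to 65.3%. The share of spots not told from background was 14.8% to 19.6% on the wild-type and 20.2% to 23.9% on the knockout arrays, so the genotypes lay apart in it, and its part in the differences below was not tested. Defining markers of lung were present, with Sftpc, the type 2 cell surfactant protein C, well above background on all 8 arrays. Ggps1 itself read 1.26 to 1.40 in the wild-type and 1.22 to 1.32 in the knockout lungs, as log2 processed signal minus the 75th percentile of its array, which is the scale of every level below. Knockout minus wild-type, which is the direction of every difference below, came to -0.06 ± 0.068 for Ggps1 (SE, limma adjusted p = 0.613). The sources used here do not say which part of the gene was deleted, and whole lung holds cells outside a restricted deletion, so this probe does not check the labels.

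No gene of the pathway passed the test between genotypes, and its median difference lay at that of all genes. The clearest separations were small and opposite in sign. Lpcat3 and Lpcat1, which put fatty acids back onto lysophospholipids, had differences of -0.33 and -0.39 on the log2 scale, while Me1, a source of NADPH for fatty acid synthesis, and Lpin1, a phosphatidate phosphatase of triglyceride synthesis, were higher by 0.50 and 0.39. These are values of the brightest probes. Other probes of Lpcat1 and Me1 had overlapping groups, and among them a Me1 probe differed by -0.08. By limma with Benjamini-Hochberg adjustment over all genes at a threshold of 0.05, 0 of 39 were called, where 0.0613% of all genes tested were (0.0327% higher and 0.0286% lower). At a threshold of 0.1, Me1 and Lpin1 passed as higher and Lpcat3 as lower, where 7.43% of all genes passed. At an unadjusted p under 0.05, 6 were higher and 6 lower, which is 30.8% of the 39 against 23.5% of all genes (10.2% higher and 13.4% lower). The 4 knockout values lay entirely apart from the 4 wild-type values for 6 of the 39 (15.4%), against 15.3% of all genes, so the count of separated genes sat at the background. Of the 6, 2 were higher (6.1% of all genes) and 4 lower (9.21%). Of the 39 differences 18 were positive (46.2%, against 45.7% of all genes), and the median difference was -0.02 beside -0.03 for all genes. The 6 that were lower at an unadjusted p became 2 without wild-type replicate 1 or wild-type replicate 3, 3 without knockout replicate 4, and 3 with quantile normalization or in the deposited value table. The 6 that were higher became 3 with median centring and lay between 4 and 6 when any 1 sample was left out.

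**Figure D1:**
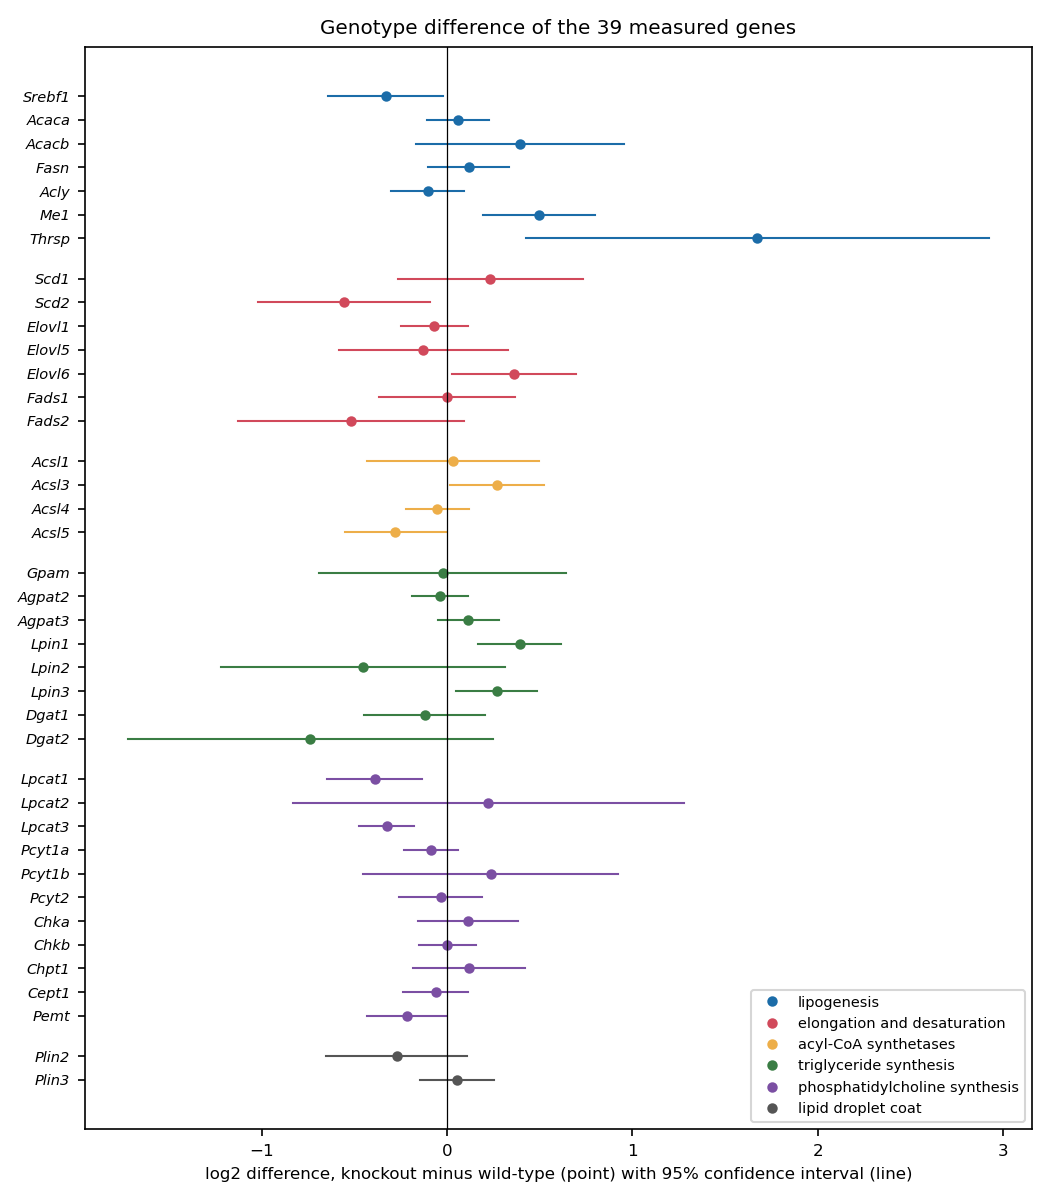
Difference between genotypes for the 39 measured genes, in log2 units, knockout minus wild-type (point), with the 95% confidence interval from limma (line), coloured by step of the pathway, 4 mice per genotype. For 27 of the 39 the interval includes 0, and Thrsp, at 1.67, lies farthest from it.

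The regulator and the first enzymes of fatty acid synthesis gave a mixed picture, with 5 of 7 differences positive and a median of 0.12. Srebf1, which encodes SREBP-1, read -1.55, -1.79, -1.40 and -1.75 in the 4 wild-type lungs (replicates 1 to 4) and -1.81, -2.14, -1.73 and -2.13 in the 4 knockout lungs in that order. The groups overlapped, since knockout replicate 3 lay above wild-type replicates 2 and 4, and the difference was -0.33 ± 0.13 (SE, limma adjusted p = 0.192). Of its textbook target enzymes, Fasn, the fatty acid synthase, read 0.29, 0.01, 0.29 and 0.11 in wild-type and 0.40, 0.15, 0.30 and 0.30 in knockout lungs. That is a difference of 0.12 with a 95% confidence interval of -0.10 to 0.34. Acaca, the acetyl-CoA carboxylase that feeds it, read 3.30, 3.08, 3.22 and 3.21 against 3.32, 3.24, 3.23 and 3.28, with an interval of -0.11 to 0.23. Acly, which splits citrate to acetyl-CoA, read 4.57, 4.73, 4.66 and 4.68 against 4.69, 4.46, 4.64 and 4.42, with an interval of -0.30 to 0.09. With the brightest probe of each, the intervals of these 3 enzymes include 0 and exclude a difference of 0.5 on the log2 scale in either direction. A dimmer Acaca probe, well above background on 3 wild-type and 0 knockout arrays, had a wider interval of -0.66 to 0.28. Acacb, the carboxylase isoform at mitochondria that limits fatty acid oxidation, differed by 0.40 ± 0.24 (SE).

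Me1, the cytosolic malic enzyme, was higher in every knockout sample than in any wild-type sample with its brightest probe, but not with its other probes. The probe with the highest signal, at 86475077 to 86475136 on mm9 chromosome 9, gave 2.92, 2.77, 2.73 and 3.16 in wild-type and 3.46, 3.31, 3.18 and 3.62 in knockout lungs. The lowest knockout value, replicate 3, stood just above the highest wild-type value, replicate 4. The difference was 0.50 ± 0.13 (SE), a 1.41-fold higher level, with an adjusted p of 0.0897 by limma. Another probe close by (86475215 to 86475274) differed by 0.66 ± 0.25, while a probe nearer the start of the gene (86480571 to 86480630) differed by -0.08 ± 0.11 (SE), so the probes of Me1 disagree. Of 8 club cell markers 7 were well above background on all arrays, each with a positive difference, and their mean lay between 5.03 and 6.54 in wild-type and between 5.96 and 7.25 in knockout lungs, while their part in the Me1 difference was not tested.

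Thrsp, a nuclear protein that promotes fatty acid synthesis and is made mostly in fat and liver, had the largest difference of the 39 genes and the largest spread. It read -2.93, -2.41, -2.93 and -3.60 in the 4 wild-type lungs (replicates 1 to 4) and -1.03, -0.38, -2.96 and -0.81 in the 4 knockout lungs in that order. Knockout replicates 1, 2 and 4 lay above every wild-type sample, while replicate 3 lay within them. The difference was 1.67 ± 0.54 (SE, limma adjusted p = 0.126) and ranged from 1.28 with normexp background correction to 2.23 without knockout replicate 3. Fat markers followed its order of samples closely within a genotype but not between genotypes. Of 11 fat markers listed, 6 were well above background on all 8 arrays, each with a positive difference. The mean of these 6 was -0.81, 1.58, 0.12 and -1.77 in the 4 wild-type lungs (replicates 1 to 4) and 1.21, 2.43, -0.86 and 2.80 in the 4 knockout lungs in that order. The 4 wild-type samples had the same order in Thrsp and in the fat marker mean, though replicates 1 and 3 were level in Thrsp (-2.93). Among the knockout samples replicates 2 and 4 changed places at the top, and replicate 3 was lowest in both. Between genotypes the orders differed. Wild-type replicate 2 exceeded knockout replicate 1 in fat marker mean (1.58 against 1.21) and lay below it in Thrsp (-2.41 against -1.03). The 6 markers were divided in this contrast. Cfd, Cidec, Retn and Cidea were higher in wild-type replicate 2, while Adig (-0.76 against -0.74) and Slc36a2 (0.89 against 1.89) were lower, as Thrsp was. Lep, the fat hormone leptin, was not well above background on any wild-type array and was on 3 of 4 knockout arrays, Adipoq and Plin1 were on 2 wild-type and 3 knockout arrays, so these 3 passed the filter through the knockout group alone, and Pck1 and Ucp1 did not pass the filter. Cardiac markers, 10 of 10 measured and all positive, lay between -0.30 and 4.38 in wild-type and between 1.55 and 4.73 in knockout lungs as means. The part of fat or heart tissue in the Thrsp difference was not tested, and in whole-lung RNA more cells of a type and more RNA per cell cannot be told apart.

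**Figure D2:**
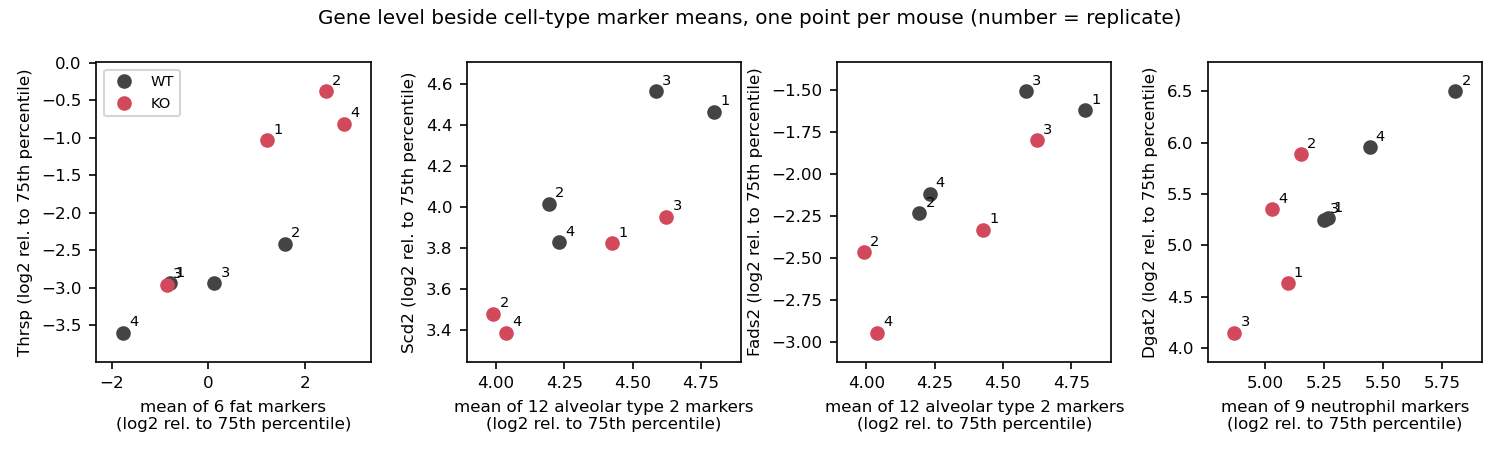
Levels of Thrsp, Scd2, Fads2 and Dgat2 (vertical axes) beside the mean of marker genes of fat, alveolar type 2 cells or neutrophils (horizontal axes), both on the log2 scale relative to the 75th percentile. Each point is 1 mouse and the number is its replicate. Knockout replicate 3 is the lowest knockout sample for the 6 fat markers and for Thrsp, and among the wild-type samples replicates 1 and 3 are at the high end of the type 2 markers, Scd2 and Fads2.

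Promoter sequence is shown, as a choice made after the values were seen, for the gene that came closest to passing (Lpcat3), the genes with the largest positive differences at an unadjusted p under 0.05 (Thrsp and Me1) and the enzyme that sets the rate of phosphatidylcholine synthesis (Pcyt1a). These are the 250 bases before the RefSeq start on GRCm38.p6, 5′ to 3′. Where a gene has several starts, Me1 is shown at the more upstream and Pcyt1a at the most upstream of its RefSeq starts. The capitals mark matches on either strand to TCACNCCAC, the letters of a sterol regulatory element that SREBP binds, to the E-box CACGTG, and to the CCAAT box of the factor NF-Y, a partner of SREBP.
Lpcat3, chr6:124662854-124663103, plus strand: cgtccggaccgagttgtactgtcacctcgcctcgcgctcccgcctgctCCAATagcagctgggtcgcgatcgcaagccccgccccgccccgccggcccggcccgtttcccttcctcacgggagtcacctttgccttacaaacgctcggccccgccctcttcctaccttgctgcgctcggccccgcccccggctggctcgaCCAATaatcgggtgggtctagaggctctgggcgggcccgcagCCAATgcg
Me1, chr9:86695915-86696164, minus strand: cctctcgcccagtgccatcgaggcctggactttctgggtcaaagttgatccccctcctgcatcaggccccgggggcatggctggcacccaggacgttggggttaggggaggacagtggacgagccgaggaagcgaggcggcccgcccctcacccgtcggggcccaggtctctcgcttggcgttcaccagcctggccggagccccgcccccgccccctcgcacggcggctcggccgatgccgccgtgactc
Thrsp, chr7:97417551-97417800, minus strand: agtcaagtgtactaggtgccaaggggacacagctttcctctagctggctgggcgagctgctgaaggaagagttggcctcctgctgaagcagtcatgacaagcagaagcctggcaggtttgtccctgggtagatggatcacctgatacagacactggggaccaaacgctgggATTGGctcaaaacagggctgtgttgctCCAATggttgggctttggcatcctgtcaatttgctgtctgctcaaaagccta
Pcyt1a, chr16:32430671-32430920, plus strand: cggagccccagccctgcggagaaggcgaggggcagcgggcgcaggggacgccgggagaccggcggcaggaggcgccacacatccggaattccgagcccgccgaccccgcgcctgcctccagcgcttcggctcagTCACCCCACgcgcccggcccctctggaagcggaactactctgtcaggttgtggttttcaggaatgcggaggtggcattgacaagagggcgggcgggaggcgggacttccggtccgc

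The RefSeq table held promoters for 33 of the 40 genes. In windows of 300 bases (250 before and 50 after the start), TCACNCCAC was present in 2 of the 33 genes, Pcyt1a and Acsl1, or 6.25% of their 48 promoters against 1.24% of all 32851 promoters, with the 2 matching windows of Pcyt1a overlapping at the same site. CACGTG was present in 8.33% of the 48 against 7.15%, and CCAAT in 52.1% against 37.4%. Lpcat3 had 4 CCAAT matches in its window, of which 3 lie before the start, and 1.06% of all promoters had at least 4. Thrsp had 2, with first bases at -79 and -52 from the start, and Fasn had 3. The Me1 sequence printed has none of the motifs. These matches are descriptions of the letters, not of binding.

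Among the desaturases and elongases the isoforms went different ways. Scd2, a stearoyl-CoA desaturase of lung and brain, read 4.46, 4.02, 4.56 and 3.83 in wild-type and 3.82, 3.48, 3.95 and 3.39 in the 4 knockout lungs in that order. Knockout replicate 3 lay above the lowest wild-type sample and the other knockout samples below it, and the difference was -0.56 ± 0.20 (SE, 1.47-fold lower, limma adjusted p = 0.157). Each knockout sample was below the wild-type sample of the same number, though no label pairs them. With the replicate number added to the fit as a block, the SE was 0.074 (limma adjusted p = 0.0598). Scd1, the main isoform of liver and fat, read 3.75, 3.15, 3.80 and 3.04 against 3.38, 3.93, 3.50 and 3.87. Here the groups overlapped widely, and the difference of 0.23 ± 0.22 (SE) had a 95% confidence interval of -0.26 to 0.73. Fads2, the delta-6 desaturase of polyunsaturated fatty acids, ranged from -2.23 to -1.51 in wild-type and from -2.95 to -1.80 in knockout lungs, a difference of -0.52 ± 0.26, while its neighbour in the pathway Fads1 had a 95% confidence interval of -0.37 to 0.37.

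Elovl6, which extends palmitate to stearate, was higher in the knockout lungs on average. It read 0.81, 0.93, 1.21 and 1.29 in wild-type and 1.58, 1.62, 1.20 and 1.30 in knockout lungs, where replicates 3 and 4 lay at the level of the upper wild-type samples. The difference was 0.36 ± 0.14 (SE, limma adjusted p = 0.183). Elovl1, an elongase of saturated very long chains, read 6.37, 6.32, 6.25 and 6.46 against 6.39, 6.19, 6.29 and 6.25 with its brightest probe, a difference of -0.07 ± 0.079. A second Elovl1 probe (mm9 chromosome 4, 118104741 to 118104800) differed by -0.33 ± 0.075 with the groups apart (limma over all probes, adjusted p = 0.0743). Elovl5, the elongase of polyunsaturated chains, differed by -0.13 ± 0.20 (SE).

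Scd2, Fads2, Fads1, Elovl5 and Srebf1 shared an order of samples that did not follow genotype alone. In both genotypes replicates 1 and 3 had higher levels than replicates 2 and 4 for Scd2, Fads2, Fads1, Elovl5 and Srebf1, a pattern noticed after the values were seen. It holds for the brightest probe of each gene. With the other Fads2 probe, knockout replicate 2 (-4.04) lay above knockout replicate 1 (-4.28). Same-numbered samples shared a slide column, so in this order slide column and replicate number cannot be told apart. The mean of the 12 alveolar type 2 markers, all measured and well above background on every array, was likewise higher in replicates 1 and 3 of each genotype, at 4.80, 4.19, 4.58 and 4.23 in wild-type and 4.43, 3.99, 4.62 and 4.04 in the 4 knockout lungs in that order. The order was not particular to type 2 markers. The mean of 9 alveolar type 1 markers was 4.99, 4.51, 4.86 and 4.73 in wild-type and 4.55, 4.10, 4.75 and 3.85 in knockout lungs, and the mean of 7 lipofibroblast markers was also higher in replicates 1 and 3 of each genotype. The part of these cell types in the 5 genes was not tested.

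The acyl-CoA synthetases, which activate fatty acids for every later step, split as well. Acsl3, the form at lipid droplets and the endoplasmic reticulum, read -2.06, -2.47, -2.22 and -2.13 in wild-type and -1.83, -1.96, -2.10 and -1.90 in knockout lungs. The groups overlapped through knockout replicate 3, and the difference was 0.27 ± 0.11 (SE, limma adjusted p = 0.188). Acsl5, a mitochondrial and reticular form, read 3.66, 3.78, 3.67 and 3.85 against 3.44, 3.63, 3.16 and 3.62. Every knockout sample lay below every wild-type sample, by -0.28 ± 0.12 on average (SE, limma adjusted p = 0.203). Acsl4, which prefers arachidonate, differed by -0.05 ± 0.074, and Acsl1 by 0.03 ± 0.20 with its brightest probe and -0.35 ± 0.24 with the other (SE).

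In triglyceride synthesis the lipins remove phosphate from phosphatidate to give diacylglycerol, and Lpin1 and Lpin3 were the triglyceride genes with an unadjusted p under 0.05. Lpin1, with its probe at 16543695 to 16543754 on mm9 chromosome 12, had levels of -1.22, -1.15, -1.07 and -1.29 in wild-type and -0.86, -0.86, -0.56 and -0.88 in knockout lungs. All 4 knockout samples were above all wild-type samples, with replicate 3 standing above the other knockout samples. The difference was 0.39 ± 0.098 (SE), 1.31-fold, with a limma adjusted p of 0.0813. Lpin3 read 1.46, 1.60, 1.39 and 1.62 against 1.80, 1.60, 1.83 and 1.92, a difference of 0.27 ± 0.095 (SE, limma adjusted p = 0.15) in which knockout replicate 2 lay among the wild-type samples. Lpin2 differed by -0.45 ± 0.33 (SE), with knockout replicate 3 at 2.48 above every wild-type sample and the other knockout samples between 0.86 and 1.52.

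For the enzymes that begin and end the pathway the genotypes overlapped. Gpam, the mitochondrial acyltransferase that adds the first chain to glycerol phosphate, read -1.45, -2.22, -1.80 and -2.60 in wild-type and -2.41, -2.09, -2.21 and -1.45 in knockout lungs. Its difference was -0.02 ± 0.29 (SE), and the spread within a genotype exceeded it. Dgat2, which adds the last chain, read 5.27, 6.50, 5.25 and 5.95 against 4.63, 5.89, 4.15 and 5.35. The groups overlapped and the difference was -0.74 ± 0.43 (SE, limma adjusted p = 0.324). Each knockout sample lay below the wild-type sample of the same number, though no label pairs them. With the replicate number added to the fit as a block, the SE was 0.11 (limma adjusted p = 0.0645). Dgat1, the other enzyme of this step, read 1.31, 1.78, 1.21 and 1.47 against 1.19, 1.39, 1.19 and 1.52, a difference of -0.12 ± 0.14 (SE). The mean of 9 measured neutrophil markers (of 10 listed, each of the 9 well above background on all arrays) was 5.27, 5.81, 5.25 and 5.44 in wild-type and 5.10, 5.15, 4.87 and 5.03 in the 4 knockout lungs in that order. Among the wild-type samples it had the order of Dgat2, and the part of neutrophils in the Dgat2 values was not tested. Agpat2 and Agpat3, which add the second chain, differed by -0.04 ± 0.065 and 0.11 ± 0.071 (SE).

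Phosphatidylcholine synthesis for surfactant and membranes held genes at both ends of the spread between mice, with Pcyt1a and Lpcat3 narrow and Lpcat2 wide. It also held the clearest lower values, those of the remodelling enzymes Lpcat3 and Lpcat1. The line from choline runs through choline kinase, the rate-limiting step that makes CDP-choline and the choline phosphotransferases. Pcyt1a, the enzyme of the CDP-choline step, read 3.38, 3.29, 3.38 and 3.38 in wild-type and 3.31, 3.22, 3.28 and 3.28 in knockout lungs. The spread was narrow, wild-type replicate 2 lay below the other wild-type samples, and the difference of -0.08 had a 95% confidence interval of -0.23 to 0.06. Chka, a choline kinase, read 1.58, 1.64, 1.33 and 1.52 against 1.67, 1.50, 1.89 and 1.47, with an interval of -0.15 to 0.38. Chpt1, a cholinephosphotransferase, read 0.92, 0.98, 0.87 and 0.62 against 0.72, 1.17, 0.83 and 1.14, with an interval of -0.19 to 0.42. The groups overlapped for all 3. Chkb, Cept1 and Pcyt2, the second choline kinase, the choline and ethanolamine phosphotransferase and the enzyme that makes CDP-ethanolamine, differed by 0.0021 ± 0.067, -0.06 ± 0.076 and -0.03 ± 0.096 (SE). Pcyt1b, the second CDP-choline enzyme, was well above background on 4 wild-type and 2 knockout arrays and differed by 0.24 ± 0.30 (SE).

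Lpcat3, which inserts polyunsaturated chains into phosphatidylcholine and is a target of the oxysterol receptor LXR, had the lowest adjusted p of the 39 genes. The probe lies at 124653374 to 124653542 on mm9 chromosome 6. Its levels were 2.51, 2.45, 2.49 and 2.45 in wild-type and 2.14, 2.17, 2.20 and 2.08 in knockout lungs. Both groups were tight and far apart for their spread, at 2.47 ± 0.034 and 2.15 ± 0.053 (SD, n = 4 per group). The difference was -0.33 ± 0.064 (SE), 1.25-fold lower, with a 95% confidence interval of -0.47 to -0.18 and a limma adjusted p of 0.0628, just short of the threshold. It passed with normexp background correction (limma adjusted p = 0.0445), with no filter on dim probes (0.0466), with an intensity trend and robust estimation of the variance together (0.0467) and with array weights (0.0487). In these settings far more of all genes passed too, with 512, 3522 (of 36153 tested), 367 and 302 called in that order, against 15 in the main fit. No other alternative called Lpcat3 at 0.05, and over all alternatives its adjusted p ranged from 0.0445 to 0.153.

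Lpcat1, the acyltransferase of type 2 cells that makes the disaturated phosphatidylcholine of surfactant, read 2.07, 1.91, 1.82 and 1.81 in wild-type and 1.74, 1.30, 1.47 and 1.56 in knockout lungs. Every knockout sample was below every wild-type sample, and the difference was -0.39 ± 0.11 (SE, 1.31-fold lower, limma adjusted p = 0.103). That held for the brightest probe only. With the other Lpcat1 probe the groups overlapped, since knockout replicate 1 (0.27) lay above wild-type replicates 2, 3 and 4. Its difference was -0.27 ± 0.17 (SE, limma over all probes, adjusted p = 0.347). Pemt, which makes phosphatidylcholine by methylation of phosphatidylethanolamine, read 1.29, 1.19, 1.34 and 1.22 against 1.15, 1.08, 0.82 and 1.12. These groups were also apart, by -0.22 ± 0.092 (SE, limma adjusted p = 0.208), though the other Pemt probes differed by -0.09 and -0.02. Lpcat2, the form of inflammatory macrophages, varied more than 1 log2 unit within each genotype and differed by 0.22 ± 0.46 (SE). Markers of monocytes were lower in the same samples as Lpcat3, Lpcat1, Acsl5 and Pemt. The mean of 9 measured monocyte markers of 10 listed, each of the 9 well above background on all arrays, lay between 3.69 and 4.02 in wild-type and between 2.60 and 3.37 in knockout lungs. All 9 had a negative difference, and Ly6c2 did not pass the filter. The neutrophil marker mean given above was apart as well, at 5.25 to 5.81 in wild-type and 4.87 to 5.15 in knockout lungs. Of these neutrophil markers 7 had a negative and 2 a positive difference. The mean of the alveolar type 1 markers overlapped between genotypes, though each of them had a negative difference. The part of these cell types in the 4 differences was not tested.

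**Figure D3:**
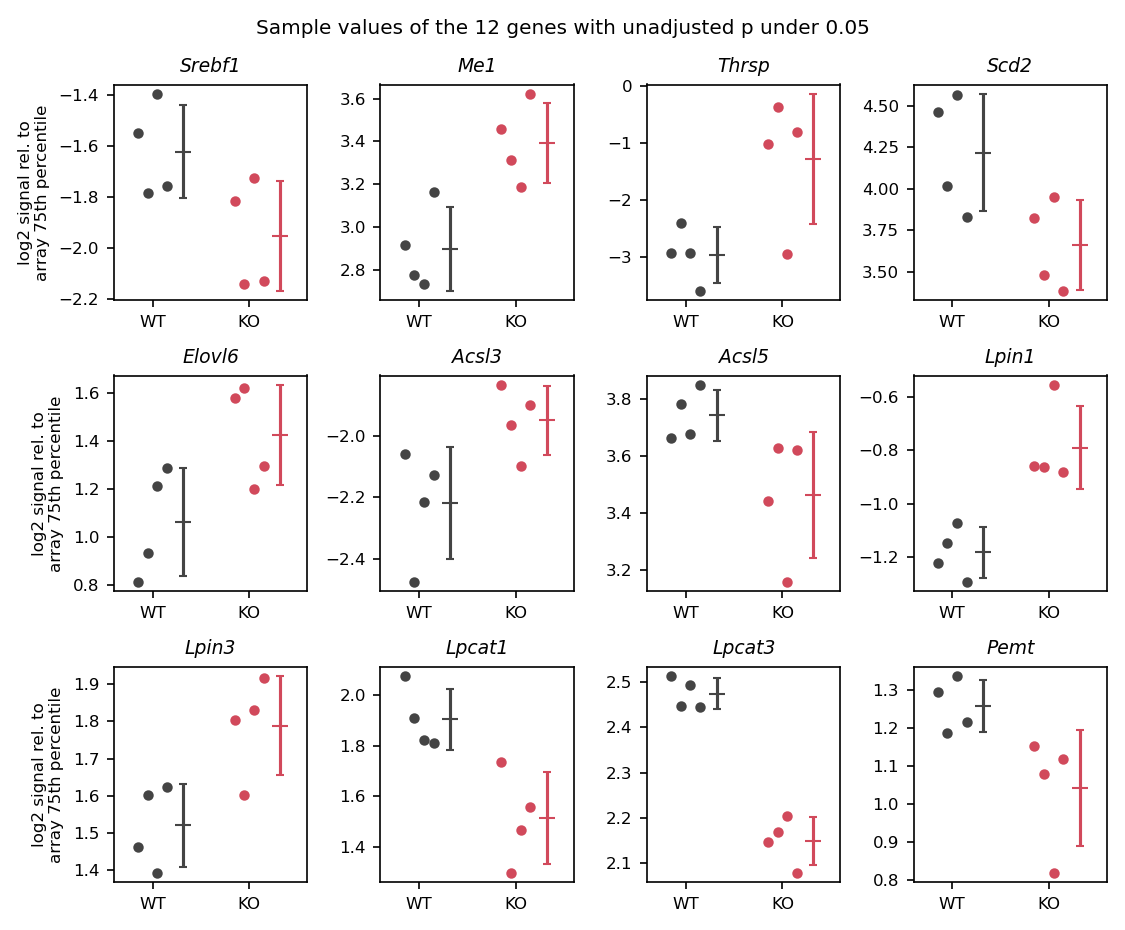
Level, on the log2 scale relative to the 75th percentile, in each of the 4 wild-type (grey) and 4 knockout (red) lungs for the 12 genes with an unadjusted p under 0.05, with the mean and SD beside the points. The vertical axes differ between panels, and the groups lie fully apart for Me1, Acsl5, Lpin1, Lpcat1, Lpcat3 and Pemt.

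Of the proteins that coat lipid droplets, Plin2, the general marker of stored fat in macrophages and lipofibroblasts, read 5.99, 6.22, 5.84 and 6.28 in wild-type and 5.75, 6.17, 5.46 and 5.87 in knockout lungs. The groups overlapped, and the difference was -0.27 ± 0.17 (SE, limma adjusted p = 0.347). Plin3, a related coat protein, differed by 0.06 ± 0.086 (SE). The mean of 7 measured lipofibroblast markers of 8, all negative, averaged 1.74 over the wild-type and 1.35 over the knockout lungs. That of 11 measured alveolar macrophage markers of 12, 8 of them negative, lay between 2.04 and 2.59 and between 1.87 and 2.13. The part of these cells in the Plin2 values was not tested.

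The genes covered a wide range of spread between mice of 1 genotype. The pooled SD within a genotype was 0.041 for Pcyt1a, 0.045 for Lpcat3, 0.050 for Agpat2 and 0.054 for Chkb on the log2 scale, which are the 4 lowest of the 39. At the other end were Thrsp at 0.88, Lpcat2 at 0.74, Dgat2 at 0.69 and Lpin2 at 0.53. Of the 39, 8 fell in the lowest and 4 in the highest 10% of all genes by this spread, and the median was 0.17 against 0.19 for all genes. Levels of different probes are not comparable, but these spreads are on 1 log2 scale. With 1 array per mouse, spread between mice and between arrays cannot be told apart. Of the wide genes, Thrsp and Lpcat2 had low signal (wild-type means -2.97 and -1.95) and Dgat2 high signal (5.74). The part of signal level in the spreads was not tested.

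**Figure D4:**
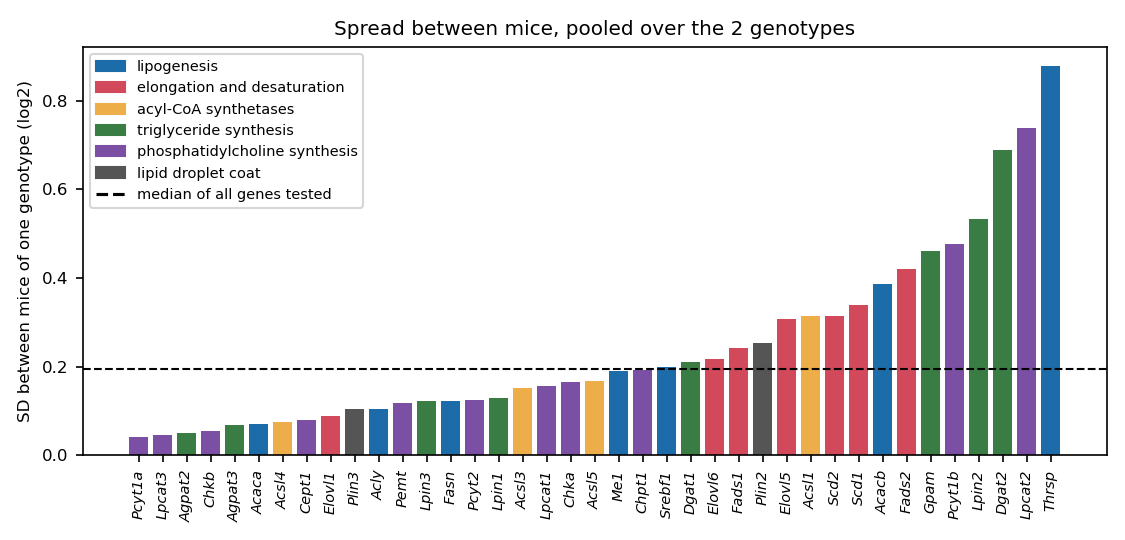
Standard deviation between mice of 1 genotype, pooled over both genotypes (bars, log2 units), for the 39 measured genes coloured by step, with the median of all genes tested (0.19) as a dashed line. Pcyt1a has the smallest bar (0.041) and Thrsp the largest (0.88).

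Of the 39 genes, 13 had more than 1 probe past the filter, and for 7 of the 13 the probes differed in sign. Besides Me1, these were Acaca, Acacb, Acly, Acsl1, Chka and Chpt1. The widest disagreements were those of Me1 (-0.08 to 0.66) and Acacb (-0.21 to 0.40). The probes of Lpcat1 gave the same sign (-0.39 and -0.27), as did those of Fads2 (-0.52 and -0.16) and Elovl1 (-0.33 and -0.07). For Lpcat1 only the brightest probe, and for Elovl1 only the dimmer probe, had the groups apart.

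**Figure D5:**
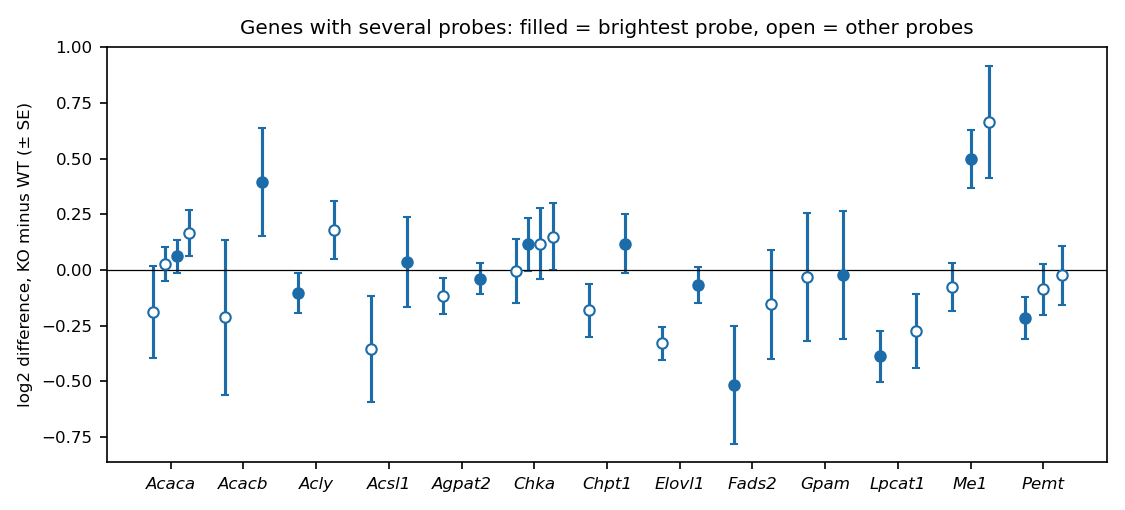
Difference between genotypes for each probe of the 13 genes with several probes past the filter, in log2 units, knockout minus wild-type, with its SE from limma. The filled point is the brightest probe, which stands for the gene elsewhere, and the open points are its other probes. The Me1 probes span -0.08 to 0.66.

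In 4 lists of other genes of lipid metabolism, 0 genes were called by limma at the adjusted threshold of 0.05. Among regulators 14 of 14 were measured, 1 higher and 2 lower at an unadjusted p under 0.05, which is 21.4% against 23.5% of all genes and so at the background. Nr1h3, the oxysterol receptor LXR-alpha, read 4.39, 4.59, 4.66 and 4.43 in wild-type and 4.17, 3.96, 3.77 and 3.57 in knockout lungs. The groups of Nr1h3 lay apart, with a difference of -0.65 ± 0.14 (SE, limma adjusted p = 0.0649). Its part in the differences of Lpcat3, Srebf1 or any other gene of the 39 was not tested. Srebf2, the regulator of cholesterol synthesis, differed by -0.70 ± 0.17 (SE, limma adjusted p = 0.0784), also with the groups apart. Ppargc1a, a coactivator of mitochondrial genes, differed by 0.80 ± 0.26. Beside Nr1h3, the mean of the monocyte markers given above was lower in the knockout lungs, with the groups apart. That of the alveolar macrophage markers was lower on average but overlapped between genotypes, with 8 of 11 markers negative. The part of these cells in the Nr1h3 difference was not tested.

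Among other enzymes of lipid synthesis 39 of 42 were measured, 6 higher and 3 lower at an unadjusted p (23.1%, at the background of 23.5%). Hacd4 (Ptplad2 in the files), a dehydratase of chain elongation, read 0.89, 1.29, 0.98 and 0.67 in wild-type and -0.13, -0.10, -0.19 and -0.78 in knockout lungs, so that the groups were far apart. Its difference was -1.25 ± 0.19 (SE, limma adjusted p = 0.0568). Cds2, which makes the CDP-diacylglycerol used for phosphatidylinositol and cardiolipin, differed by -0.58 ± 0.099 (SE, limma adjusted p = 0.0599). Elovl4, an elongase of very long chains, and Gpat2, a glycerol phosphate acyltransferase, differed by 1.30 ± 0.22 and 1.08 ± 0.19 (SE), with limma adjusted p of 0.0568 and 0.0599. Elovl4 was dim in the wild-type lungs, at -5.56 to -4.45, and well above background on 3 of the 4 wild-type arrays.

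Genes that break fatty acids down or burn them had 7 members higher and 1 lower at an unadjusted p among 18 measured (44.4%, against 23.5% of all genes), with a median difference of 0.21. Cardiac markers were higher beside this list, with a mean of -0.30, 4.38, 1.30 and 1.31 in wild-type and 2.66, 4.73, 1.55 and 4.68 in knockout replicates 1, 2, 3 and 4, and their part in its counts was not tested. The mitochondrial genes Acadl (0.30 ± 0.080) and Cpt2 (0.42 ± 0.12) differed with the groups apart (SE, limma adjusted p of 0.0921 and 0.104), and Pnpla3, a droplet lipase, differed by 0.99 ± 0.28 (SE). Genes of uptake and transport, 16 measured of 18, had 3 higher and 3 lower at an unadjusted p (37.5%). Slc27a4 and Slc44a1, a fatty acid and a choline transporter, differed by -0.43 ± 0.12 and 0.31 ± 0.11, and Slc27a2, another fatty acid transporter, by 1.51 ± 0.48 (SE). Vldlr, a lipoprotein receptor, averaged 0.94 in wild-type and 1.94 in knockout lungs. Slc27a2 was at -1.76, -0.61, -2.44 and -0.32 in knockout replicates 1, 2, 3 and 4, with replicate 3 lowest as for the fat markers, whose part was not tested.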

How the data were processed

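Per the labels' protocols, whole-lung total RNA was labelled with Cy3 and hybridised to single-colour arrays. The deposited scanner files hold spot intensity values, background-subtracted by Agilent Feature Extraction 10.7.1.1, per the submitters' processing notes and the file headers. Probe positions are on mm9, per the file headers. A deposited table of log2 values made by the authors served as an alternative. Its columns share 1 median (5.63) and correlate at 0.999 or more with the log2 scanner signal across probes. The sources used here do not say how it was scaled.

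Control and outlier spots were left out, spots of a probe averaged, and log2 processed signal set relative to the 75th percentile of each array. A probe was kept when well above background on at least 3 of 4 arrays of a genotype, and the brightest probe (mean over the 8 arrays) stood for a gene name. The 2 genotypes were fitted by limma 3.58.1 (R 4.3.3), with moderated two-sided tests and Benjamini-Hochberg adjustment over 24464 genes. The fit was tested on simulated data. Replicates are separate mice per the series' design text, and for arrays their number limits the precision.

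All sample values are given for genes at an unadjusted p under 0.05 or with groups apart, and for 17 enzymes and regulators fixed by name. Of each other pathway list up to 4 genes with the smallest p are named. A gene that this rule names is not reported here. Genes and lists were chosen with earlier results of these data known, so no list was tested as a set. Position of a probe within exon or UTR was not used here. Alternatives were other background correction, scaling, filters, probe rules, variance models, the deposited table, the replicate number as a block and leaving out each sample. Promoters are from RefSeq on GRCm38.p6. Same-numbered samples of the 2 genotypes were not taken as pairs. Figures were drawn with matplotlib 3.10.9.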

Additional observations from a re-analysis of the deposited data

Results flagged for a closer look

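Among the 78 groups of 4 values (39 genes, 2 genotypes), 3 held a sample far from the others by Dixon's ratio (gap over range), where chance gives about 1 in 20. Acsl1 in wild-type lungs had a ratio of 0.903, with replicate 2 at 3.47 and the others between 2.93 and 2.99. Lpin1 in knockout lungs had a ratio of 0.931, with replicate 3 at -0.56 and the others between -0.88 and -0.86. Pcyt1a in wild-type lungs had a ratio of 0.947, with replicate 2 at 3.29 and the others at 3.38.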

How the results depend on the processing

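All medians, and the counts of positive differences, moved by less than the spread between samples or by less than 1.5 times under every alternative run, with the count of positive genes of the 39 between 15 and 23 and their median between -0.08 and 0.04. Genes called higher and lower over all genes, 8 and 7, became 229 and 283 with normexp background correction, 2737 and 785 with no filter on dim probes, 59 and 67 with the filter at all 8 arrays, 3 and 3 with the mean of the probes, 143 and 224 with an intensity trend and robust variance estimation together, 142 and 160 with array weights, and 747 and 1070 at a threshold of 0.1. Median centring gave 11 lower. Leaving out 1 sample gave 1 to 11 higher and 0 to 12 lower. Of the 39 genes, 1 (Lpcat3, lower) was called with normexp, no filter, the trend with robust estimation, or array weights, and at 0.1 there were 2 higher (Lpin1 and Me1) and 1 lower (Lpcat3). At an unadjusted p, higher genes of the 39 were 3 with median centring, and lower ones 3 with quantile normalization and with the deposited table. Leaving out 1 sample gave 4 to 6 higher and 2 to 6 lower of the 39.

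Signs turned for Acly (0.039 with the mean of the probes, 0.18 with its other probe) and Chpt1 (-0.032 and -0.18). They also turned in single probes of Acaca (-0.19), Acacb (-0.21), Acsl1 (-0.35), Me1 (-0.077) and Chka (-0.0048). Gpam ranged from -0.22 to 0.17 when 1 sample was left out, and was positive without wild-type replicate 1 (0.17) or 3 (0.05) or knockout replicate 1 (0.10) or 3 (0.04). The causes were not tested. Same-numbered samples share a slide column, and no label pairs them. Their deviations correlated at 0.129, 0.470, 0.0119 and -0.292, and not every sample correlated best with its own number. With the replicate number, and so the slide column, as a replicate block, 10 genes were called higher and 33 lower, 0 of the 39 among them. At an unadjusted p, 5 of the 39 were higher and 8 lower (25.1% of all genes). Dgat2, Fads2 and Plin2 joined the lower genes, while Pemt left them and Elovl6 left the higher ones. Spots not told from background made up 14.8% to 19.6% of wild-type and 20.2% to 23.9% of knockout arrays. Of the 40 genes, Pcyt1b and Elovl3 are the dim ones.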
